A study of Mus musculus with 16 samples.

Results

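Transcripts of 7 genes of cholesterol synthesis were followed in the cerebellum and hippocampus of old mice that overexpressed a mutant Twinkle protein and of wild-type mice. The genes were Hmgcs1, Fdft1, Sqle, Lss, Cyp51 and Dhcr7, which encode enzymes, and Insig1, which encodes a regulator. They were found as the probe sets whose only gene symbol in the platform annotation was one of these names. That gave 18 of 44904 probe sets, or 7 of 18168 named genes. Hmgcs1 had 5 probe sets, Fdft1 4, Lss and Cyp51 3 each, and Sqle, Dhcr7 and Insig1 1 each.

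Twinkle is a mitochondrial helicase needed to copy mitochondrial DNA, and the mutant mice, called deletor mice, model the mitochondrial disease progressive external ophthalmoplegia, in which eye muscles weaken. There were 4 arrays for each genotype and region, numbered 1 to 4 by the submitters, and all mice were aged. Mutants 1 and 2 were 24 months old and mutants 3 and 4 were 21 months old. Wild types 1, 2, 3 and 4 were 26, 24, 21 and 23 months old, so the older class (24 to 26 months) was always numbered 1 or 2 and the younger class (21 to 23 months) 3 or 4. Age class therefore cannot be told apart from anything else that set replicates 1 and 2 apart from 3 and 4. The labels name no promoter for the transgene and no strain, and they do not say whether both regions came from the same animals. The free-text description of all 8 hippocampus arrays names the cerebellum, whereas their titles, source and tissue fields name the hippocampus, which was followed here.

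Brain cholesterol is made almost wholly within the brain, since lipoproteins of the blood do not cross its barrier, and in the adult it is held mostly in myelin. Synthesis starts from acetyl-CoA, passes through mevalonate and squalene, and closes the sterol rings at lanosterol before later enzymes turn that into cholesterol. The enzymes' genes are switched on together by the transcription factor SREBP2 when sterols in the endoplasmic reticulum run low. Insig1 holds the SREBP escort Scap in that membrane when sterols are plentiful, and its own gene is an SREBP target.

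The bases upstream of the transcription start are shown for the 4 members with a single start in the RefSeq promoter table (GRCm38.p6), because SREBP2 acts there together with the factors NF-Y and Sp1. Capitals mark TCACNCCA, a core of the sterol response element, and CCAAT, the NF-Y box, on either strand. The stretches are chr13:119690101-119690350 on the plus strand for Hmgcs1, chr10:76531355-76531564 on the plus strand for Lss, chr5:4104698-4104947 on the minus strand for Cyp51 and chr5:28071162-28071411 on the plus strand for Insig1. The stretch for Lss is 210 bases long, since bases inside the annotated gene were left off, and the others are 250 bases long.
Hmgcs1: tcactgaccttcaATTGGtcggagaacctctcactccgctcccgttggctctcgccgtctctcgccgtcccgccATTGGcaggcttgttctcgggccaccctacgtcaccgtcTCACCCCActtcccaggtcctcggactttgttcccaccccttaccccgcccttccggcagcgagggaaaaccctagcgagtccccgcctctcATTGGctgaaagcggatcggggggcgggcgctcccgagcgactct
Lss: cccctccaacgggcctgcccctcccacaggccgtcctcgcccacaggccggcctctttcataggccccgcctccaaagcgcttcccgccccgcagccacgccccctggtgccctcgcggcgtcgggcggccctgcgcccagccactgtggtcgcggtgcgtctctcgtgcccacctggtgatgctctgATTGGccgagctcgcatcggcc
Cyp51: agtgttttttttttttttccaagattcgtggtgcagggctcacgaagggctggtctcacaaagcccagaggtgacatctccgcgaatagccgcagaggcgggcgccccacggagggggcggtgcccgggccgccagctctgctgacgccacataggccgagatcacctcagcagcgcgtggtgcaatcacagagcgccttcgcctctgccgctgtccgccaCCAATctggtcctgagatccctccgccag
Insig1: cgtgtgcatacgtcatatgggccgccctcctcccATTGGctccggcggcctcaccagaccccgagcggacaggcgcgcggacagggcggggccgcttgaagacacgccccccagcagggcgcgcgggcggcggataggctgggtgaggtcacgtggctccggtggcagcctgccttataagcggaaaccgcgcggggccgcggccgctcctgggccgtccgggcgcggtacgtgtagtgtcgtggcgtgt

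Upstream of a start, TCACNCCA was found for 1 of the 5 members in the table, Hmgcs1, where it began 137 bases before the start. It was present in 3.67% of all 32851 promoters searched in the same way. CCAAT was found for 5 of the 5 members, 3 times in Hmgcs1, and in 33.8% of all promoters. For Dhcr7, which has 3 starts, it was found at 1 of them. The Sp1 box GGGCGG, not in capitals, was also found for 5 of the 5 members and in 32.7% of all promoters. For Dhcr7 it was found at the starts listed as 1 and 3. A member was counted if any of its starts matched, whereas the shares over all promoters count each start on its own. The matches did not overlap one another, and a match is a description of the sequence, not of binding. Sqle and Fdft1 were not in the table.

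The deposited values were centred per region, since every probe set's median over a region's 8 arrays is 0. The values were read as log2 differences from that median. They hold no expression level, so the 7 genes cannot be ranked by abundance, and the labelled tissues cannot be checked by the level of their markers. The log base is not given in the sources used here and is taken as 2. Several arrays stood apart. On the hippocampus arrays, 8 marker genes of cerebellar granule neurons averaged 2.71 on wild-type replicate 1 and 0.97 on mutant replicate 1, against -0.29 to 0.28 on the other 6, and both arrays belong to the older class. Purkinje cell markers averaged 2.07 and 0.67 on the same arrays. In the cerebellum, the poly-A spike-in probe sets averaged 0.55 on mutant replicate 2, 0.59 on mutant replicate 4 and between -0.20 and 0.05 elsewhere. The hybridization spike-ins averaged -0.80 on cerebellum wild-type replicate 4 and -0.10 to 0.26 on the other cerebellum arrays. Choroid plexus markers averaged 2.02 on hippocampus mutant replicate 4 and -1.38 on cerebellum mutant replicate 4.

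**Figure D1:**
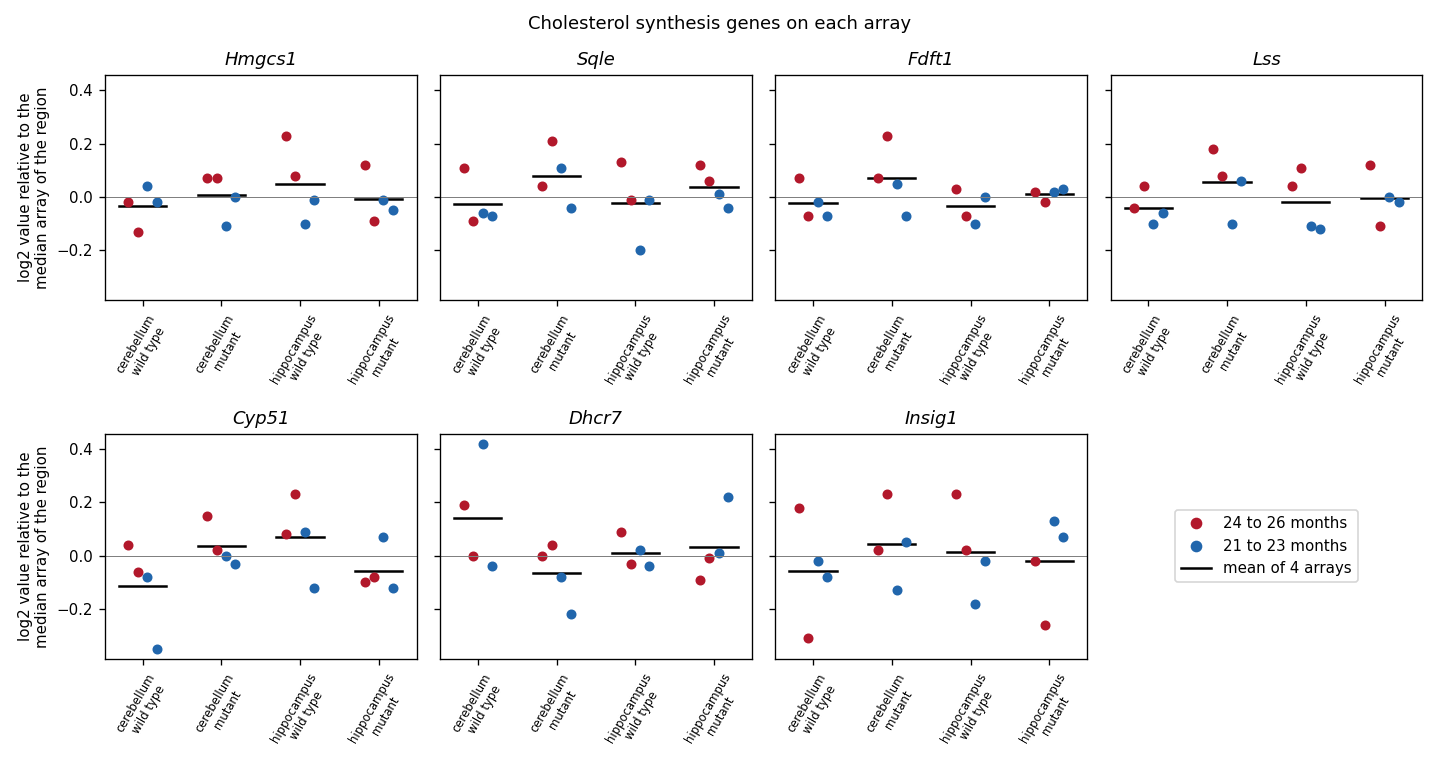
Log2 value of each gene on each array, relative to the median array of the region, with groups of 4 arrays along the horizontal axis, colour for age class and a bar at each group's mean. Genotypes overlap for all 7 genes in both regions; the widest excursions are Dhcr7 at 0.42 in wild-type cerebellum and Cyp51 at -0.35 in another wild-type cerebellum.

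The comparison of genotypes asked whether mutant Twinkle altered the pathway's transcripts. In the cerebellum 6 of the 7 genes had a higher mean in mutants, from 0.05 for Hmgcs1 to 0.15 for Cyp51, and Dhcr7 had a lower one, at -0.21, but no difference passed the test. In the hippocampus 4 were above 0 and 3 below, between -0.13 and 0.06, and none passed. limma, fitted to all genes and 16 arrays, called 0% of 18168 genes in either region at an adjusted p of 0.05. At an unadjusted p under 0.05, 1 member was counted in the cerebellum (Dhcr7, lower), where 2.24% of all genes were counted as lower and 5.39% in either direction. In the hippocampus the count was 0 members, against 8.03% of all genes. Mutants and wild types overlapped for each member in both regions, whereas they lay apart for 2.46% of all genes in the cerebellum and 4.76% in the hippocampus. The median difference over the 7 genes was 0.10 in the cerebellum and 0.02 in the hippocampus, beside 0.01 and 0.02 over all genes, and 53.6% and 58.9% of all genes were above 0. The 95% intervals of the 7 genes lay between -0.40 and 0.33 in the cerebellum and between -0.30 and 0.21 in the hippocampus. For means over a gene's probe sets, they therefore leave room for changes of up to 1.32-fold and 1.23-fold respectively. Single probe sets leave more room. The interval of 1 Cyp51 probe set ran from -0.01 to 0.59 in the cerebellum and from -0.58 to 0.03 in the hippocampus. Without cerebellum mutant replicates 2 and 4, 5 of the 7 genes were above 0 in the cerebellum (median 0.08), and without mutant replicate 2 alone 6 were (median 0.04). Without both hippocampus replicates 1, 4 were above 0 in the hippocampus (median 0.04), without wild-type replicate 1 alone 6 were (median 0.04), and without mutant replicate 4 it was 3 (median -0.04).

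**Figure D2:**
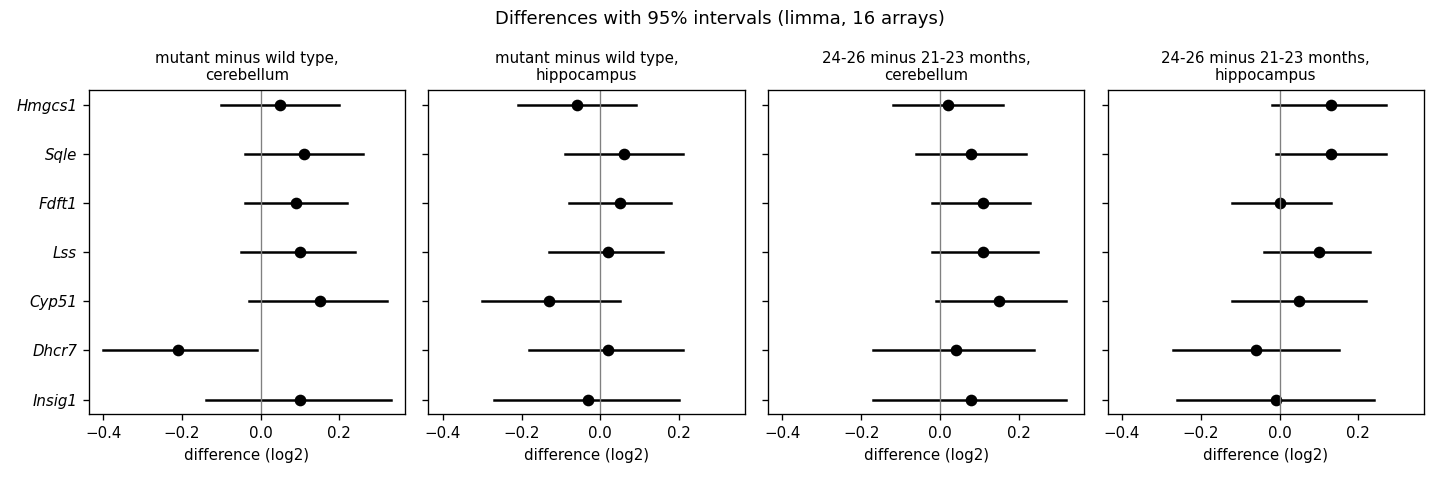
Difference of each gene on the log2 scale (horizontal axis) with its 95% interval, for mutant minus wild type and for 24 to 26 minus 21 to 23 months in each region. The interval of Dhcr7 in the genotype comparison of the cerebellum, -0.40 to -0.01, is the only one of the 28 that leaves out 0 before adjustment for the number of genes tested.

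Hmgcs1 encodes the cytosolic HMG-CoA synthase, which makes the precursor of mevalonate. In the cerebellum it stood at 0.07, 0.07, -0.11 and 0.00 on mutant replicates 1 to 4 and at -0.02, -0.13, 0.04 and -0.02 on wild types 1 to 4. The genotypes overlapped, and the difference was 0.05 (SE 0.07, adjusted p = 0.96). In the hippocampus mutants stood at 0.12, -0.09, -0.01 and -0.05 and wild types at 0.23, 0.08, -0.10 and -0.01, a difference of -0.06 (SE 0.07, adjusted p = 0.85). The highest of these, 0.23, was on the wild-type array with the raised cerebellar markers, and without that array the difference was 0.00. It was -0.11 without wild-type replicate 3.

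Fdft1 encodes squalene synthase, the first enzyme committed to sterols. Its cerebellar values were 0.07, 0.23, 0.05 and -0.07 in mutants and 0.07, -0.07, -0.02 and -0.07 in wild types. Mutant replicate 2 alone stood clear of the wild types, and the difference was 0.09 (SE 0.06, adjusted p = 0.89). It was 0.04 without that array, which had raised spike-ins, 0.14 without mutant replicate 4, and 0.03 without the probe sets marked as able to bind related transcripts. In the hippocampus mutants lay between -0.02 and 0.03 and wild types between -0.10 and 0.03, a difference of 0.05 (SE 0.06, adjusted p = 0.85). Fdft1 had the narrowest spread among the members, with a within-group SD of 0.078 against a median of 0.106 over all genes.

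Sqle encodes squalene epoxidase, a rate-limiting enzyme further along the path. Cerebellar mutants stood at 0.04, 0.21, 0.11 and -0.04 and wild types at 0.11, -0.09, -0.06 and -0.07. The groups overlapped, and the difference of 0.11 (SE 0.07, adjusted p = 0.89) was 0.06 without mutant replicate 2, an array with raised spike-ins. It was 0.15 without wild-type replicate 1. In the hippocampus mutants stood at 0.12, 0.06, 0.01 and -0.04 and wild types at 0.13, -0.01, -0.20 and -0.01, a difference of 0.06 (SE 0.07, adjusted p = 0.84). That difference was 0.00 without wild-type replicate 3, the lowest, and 0.11 without wild-type replicate 1, the array with the raised cerebellar markers.

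Lss encodes lanosterol synthase, which closes the sterol rings. It stood at 0.18, 0.08, -0.10 and 0.06 in cerebellar mutants and at -0.04, 0.04, -0.10 and -0.06 in wild types, a difference of 0.10 (SE 0.07, adjusted p = 0.90). Replicate 3 was the lowest array of each genotype, and the difference was 0.06 without mutant replicate 1, the highest. It was 0.15 without mutant replicate 3. The hippocampal values were 0.12, -0.11, 0.00 and -0.02 in mutants and 0.04, 0.11, -0.11 and -0.12 in wild types, and the difference was 0.02 (SE 0.07, adjusted p = 0.96).

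Cyp51 encodes the demethylase that acts on lanosterol. In the cerebellum mutants stood at 0.15, 0.02, 0.00 and -0.03 and wild types at 0.04, -0.06, -0.08 and -0.35. Wild-type replicate 4 was the lowest array by far, and the genotypes overlapped. The difference of 0.15 (SE 0.08, adjusted p = 0.88) was 0.07 without that array, the one with low hybridization spike-ins. It was 0.20 with array weights. In the hippocampus mutants stood at -0.10, -0.08, 0.07 and -0.12 and wild types at 0.08, 0.23, 0.09 and -0.12, so 3 of 4 wild types lay above all mutants. The difference was -0.13 (SE 0.08, adjusted p = 0.70), or -0.07 without wild-type replicate 2 and -0.19 without wild-type replicate 4. Its sign was opposite to that in the cerebellum. The test of that contrast, hippocampus minus cerebellum, gave -0.27 (SE 0.12, adjusted p = 0.87).

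Dhcr7 encodes the reductase of the last step in one branch of the pathway. Its cerebellar values were 0.00, 0.04, -0.08 and -0.22 in mutants and 0.19, 0.00, 0.42 and -0.04 in wild types. Wild types 1 and 3 lay above all mutants, while wild types 2 and 4 lay among them, and the difference was -0.21 (SE 0.09, adjusted p = 0.88). It was -0.12 without wild-type replicate 3 and -0.27 without wild-type replicate 4. Wild-type replicate 3, at 0.42, had the widest spread of values among the cerebellum arrays (SD 0.185, against 0.114 to 0.160) and 76 empty values. In the hippocampus mutants stood at -0.09, -0.01, 0.01 and 0.22 and wild types at 0.09, -0.03, 0.02 and -0.04, a difference of 0.02 (SE 0.09, adjusted p = 0.97).

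Insig1, the regulator, varied most among the members, with a within-group SD of 0.173 that exceeded that of 88% of genes. Cerebellar mutants stood at 0.02, 0.23, -0.13 and 0.05 and wild types at 0.18, -0.31, -0.02 and -0.08, a difference of 0.10 (SE 0.11, adjusted p = 0.94). Both genotypes spanned positive and negative values, and the difference was 0.00 without mutant replicates 2 and 4, the arrays with raised spike-ins. It was 0.18 without wild-type replicate 1. In the hippocampus mutants stood at -0.02, -0.26, 0.13 and 0.07 and wild types at 0.23, 0.02, -0.18 and -0.02, a difference of -0.03 (SE 0.11, adjusted p = 0.96).

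The marker lists of other cells were set beside the genotype comparison; none of their genes passed, and their part in the members' values was not tested. In the cerebellum microglia markers had 7 of 7 genes above 0 in mutants (median 0.06), as 6 of the 7 cholesterol genes were, with list means of -0.11 to 0.33 on mutant and -0.15 to 0.08 on wild-type arrays. Without mutant replicate 2, 4 of these 7 were above 0 (median 0.02). Choroid plexus markers had 1 of 7 above 0 there (median -0.45), and 2 of 7 without mutant replicate 4 (median -0.05). In the hippocampus ependymal markers had 5 of 5 above 0 (median 0.65), with list means of 0.04 to 0.60 on mutants and -0.39 to -0.04 on wild types. Markers of meninges and fibroblasts had 6 of 6 (median 0.41), with list means of 0.06 to 0.77 against -0.27 to -0.03. Choroid plexus markers had 6 of 7 (median 0.26), and 1 of 7 without mutant replicate 4 (median -0.27). Blood markers had 0 of 3 above 0 in the cerebellum (median -0.38) and 1 of 3 in the hippocampus (median -0.59). The medians of the neuron lists were below 0 in mutant hippocampus. Pyramidal and dentate markers had 1 of 6 above 0 (median -0.26) and general neuron markers 1 of 6 (-0.08). Cerebellar granule neurons had 1 of 8 (-0.29) and Purkinje cells 0 of 5 (-0.27), with wild-type replicate 1 at 2.71 and 2.07. Granule neuron list means were -0.20 to 0.97 on mutants and -0.29 to -0.10 on wild types 2 to 4. Those of Purkinje cells were -0.01 to 0.67 on mutants and -0.13 to -0.03 on wild types 2 to 4. The granule neuron and Purkinje lists thus ran lower in mutants only with wild-type replicate 1 included. Pyramidal and dentate list means were -0.21 to -0.04 on mutants and -0.39 to 0.40 on wild types. In the cerebellum the medians of the neuron lists were -0.03 to 0.00. Myelin markers, of interest because oligodendrocytes make much of the brain's cholesterol, had a higher mean in mutant hippocampus for 9 of 9 measured genes (median 0.15), with list means of -0.20 to 0.18 on mutant arrays and -0.36 to 0.09 on wild types, and 8 of 9 without wild-type replicate 1 (median 0.07). In the cerebellum 2 of the 9 were higher (median -0.02). The hippocampus array lowest for myelin, wild-type replicate 1 at -0.36, was the one with the highest mean of the 7 cholesterol genes, 0.12. In bulk tissue, fewer cells of a type and less RNA per cell cannot be told apart.

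The difference between genotypes was also set against region and age. The effect in hippocampus minus that in cerebellum was below 0 for 6 of the 7 genes, with Dhcr7 at 0.23 (SE 0.13, adjusted p = 0.87) as the exception, and none passed (0% of all genes called). At an unadjusted p under 0.05 it counted 1 member, Cyp51, against 5.35% of all genes, and 54.9% of all genes were above 0. Averaged over regions with age class as a term, the genotype difference was largest for Sqle, 0.09 (SE 0.05, adjusted p = 0.63), and Dhcr7, -0.09 (SE 0.06, adjusted p = 0.65). None passed there (0% of all genes called), 0 members had an unadjusted p under 0.05 against 8.47% of all genes, and 5 of the 7 were above 0, as were 58.7% of all genes. Across the 4 cells of genotype and age in the hippocampus, Insig1 was 0.23 and 0.02 in older wild types, -0.18 and -0.02 in younger ones, -0.02 and -0.26 in older mutants and 0.13 and 0.07 in younger mutants. Older wild types thus stood above younger ones, and older mutants below younger ones. How often 2 arrays stand apart from 2 in this way over all genes was not counted. The contrast, genotype difference at 24 to 26 months minus that at 21 to 23 months, was -0.46 (SE 0.21, adjusted p = 0.96), and that of the other 6 genes lay between -0.24 and -0.05. In the cerebellum this contrast was above 0 for 6 of the 7 genes, up to 0.27 for Dhcr7 (SE 0.19, adjusted p = 1). limma called 0% of all genes for either contrast. At an unadjusted p under 0.05 it counted 1 member in the hippocampus, Insig1, against 5.04% of all genes, and 0 in the cerebellum, against 2.01%. Over all genes 53.5% were above 0 in the hippocampus and 48.8% in the cerebellum. Each cell held 2 arrays. In the same hippocampal contrast choroid plexus markers had 0 of 7 genes above 0 (median -2.75), cerebellar granule neuron markers 0 of 8 (median -1.21) and ependymal markers 0 of 5 (median -0.49). Without wild-type replicate 1 the granule neuron count was 5 of 8 (median 0.14), and without mutant replicate 4 the choroid plexus count stayed at 0 of 7 (median -1.53). Insig1 stood at -0.35 without wild-type replicate 1, -0.49 without mutant replicate 4 and -0.34 without mutant replicate 2. The part of these markers in its contrast was not tested.

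The comparison of ages asked whether the transcripts differed between mice of 24 to 26 and of 21 to 23 months. In the cerebellum 7 of the 7 genes had a higher mean in the older mice, from 0.02 for Hmgcs1 to 0.15 for Cyp51. In the hippocampus 5 of the 7 had differences between 0.00 and 0.13, and Dhcr7 and Insig1 were at -0.06 and -0.01. None passed. limma called 0% of 18168 genes in either region, and at an unadjusted p under 0.05 it counted 0 members in each, against 4.21% of all genes in the cerebellum and 6.55% in the hippocampus. The median over the members was 0.08 in the cerebellum and 0.05 in the hippocampus, beside 0.01 and -0.01 over all genes, of which 52.6% and 45.3% were above 0. Age classes overlapped for each member in both regions, while they lay apart for 2.26% and 3.5% of all genes. The 95% intervals of the members lay between -0.17 and 0.32 in the cerebellum and between -0.27 and 0.27 in the hippocampus. For means over a gene's probe sets, this leaves room for changes of up to 1.25-fold and 1.21-fold. The interval of 1 Cyp51 probe set reached 0.57 in the cerebellum, and that of 1 Hmgcs1 probe set 0.39 in the hippocampus. Myelin markers had 0 of 9 genes above 0 with age in the hippocampus (median -0.13), with list means of -0.36 to 0.04 on older and -0.24 to 0.18 on younger arrays, and 4 of 9 in the cerebellum. Some other lists ran the way of the members. In the cerebellum microglia markers had 6 of 7 above 0 (median 0.16), endothelium 4 of 4 (0.16) and ependymal cells 5 of 5 (0.29). Meninges and fibroblasts had 5 of 6 there (0.13) and choroid plexus 7 of 7 (0.22), the last 3 of 7 without mutant replicate 4 (-0.02). In the hippocampus astrocytes had 7 of 7 above 0 (0.09), microglia 6 of 7 (0.11), endothelium 4 of 4 (0.09) and meninges and fibroblasts 5 of 6 (0.18). Cerebellar granule neuron markers had 8 of 8 there (0.63), and 3 of 8 without both replicates 1 (-0.05). Ependymal list means in the hippocampus were -0.39 to 0.26 on older and -0.31 to 0.60 on younger arrays. Those of choroid plexus were -0.44 to 0.97 on older and -0.38 to 2.02 on younger ones. The part of these lists in the members' values was not tested.

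By gene, Cyp51 differed by 0.15 (SE 0.08, adjusted p = 1) with age in the cerebellum, its older mice at -0.06 to 0.15 and its younger ones at -0.35 to 0.00. It was 0.09 without wild-type replicate 4, the array at -0.35, and 0.20 with array weights. It was followed there by Lss, at 0.11 (SE 0.06, adjusted p = 1), and Fdft1, at 0.11 (SE 0.06, adjusted p = 1). Lss was at 0.07 without mutant replicate 3, and at 0.15 without the probe sets marked as able to bind related transcripts. Fdft1 was at 0.06 without mutant replicate 2 and at 0.14 without wild-type replicate 2. In the hippocampus Sqle was at 0.13 (SE 0.07, adjusted p = 0.75), with older mice between -0.01 and 0.13 and younger ones between -0.20 and 0.01. Hmgcs1 was also at 0.13 (SE 0.07, adjusted p = 0.76), with older mice between -0.09 and 0.23. Its older class held both arrays with raised cerebellar markers, and without them the differences were 0.04 for Hmgcs1 and 0.08 for Sqle. Hmgcs1 was at 0.18 without mutant replicate 2, and Sqle at 0.16 without wild-type replicate 4. Without cerebellar mutant replicates 2 and 4, those with raised spike-ins, the cerebellar differences were 0.04 for Fdft1 and 0.02 for Sqle, and 6 of the 7 genes were above 0 (median 0.04). Without both hippocampus replicates 1, 4 of the 7 were above 0 in the hippocampus (median 0.04). The age difference in hippocampus minus that in cerebellum ranged from -0.10 to 0.11 over the members, with 2 of 7 above 0 beside 46.2% of all genes. None passed (0% of all genes called), and 0 had an unadjusted p under 0.05, against 4.05% of all genes. Averaged over regions, Sqle stood at 0.11 (SE 0.05, adjusted p = 0.79) and Lss at 0.10 (SE 0.05, adjusted p = 0.79), and 6 of 7 genes were above 0, beside 48.3% of all genes. At an unadjusted p under 0.05, 1 member was counted (Lss), against 6.29% of all genes. In that average limma called 2 of all genes, or 0.011%, Mmp12 and Postn, both higher in the older mice and neither a gene of this pathway (named here after their values were seen).

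The probe sets of a gene did not always go the same way. Taken one by one in the fit of 44904 probe sets, 14 of the 18 were above 0 for genotype in the cerebellum, 7 in the hippocampus, 16 for age in the cerebellum and 13 in the hippocampus. None passed, and 0% of all probe sets did in these 4 comparisons. The cerebellar genotype difference of Cyp51 came from 2 of its probe sets, at 0.29 (SE 0.14) and 0.18 (SE 0.09), while the other stood at -0.03 (SE 0.09). In the hippocampus the same 3, in that order, stood at -0.27, -0.10 and -0.01. The first of these spanned -0.66 to 0.17 over the cerebellar arrays and reached 0.47 in the hippocampus. For Fdft1 in the cerebellum the 4 probe sets ranged from -0.04 to 0.23. For Hmgcs1 and age in the hippocampus 5 of 5 probe sets were above 0, from 0.05 to 0.17, and their 10 pairs all correlated positively over the 8 arrays (median r = 0.68). Those of Fdft1 did so in 2 of 6 pairs there (median r = -0.43). On wild-type replicate 1, with raised cerebellar markers, the Hmgcs1 probe sets stood at 0.285, 0.255, 0.285, 0.331 and -0.02 in the hippocampus. Without both hippocampus replicates 1 the age difference of Hmgcs1 was 0.04.

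**Figure D3:**
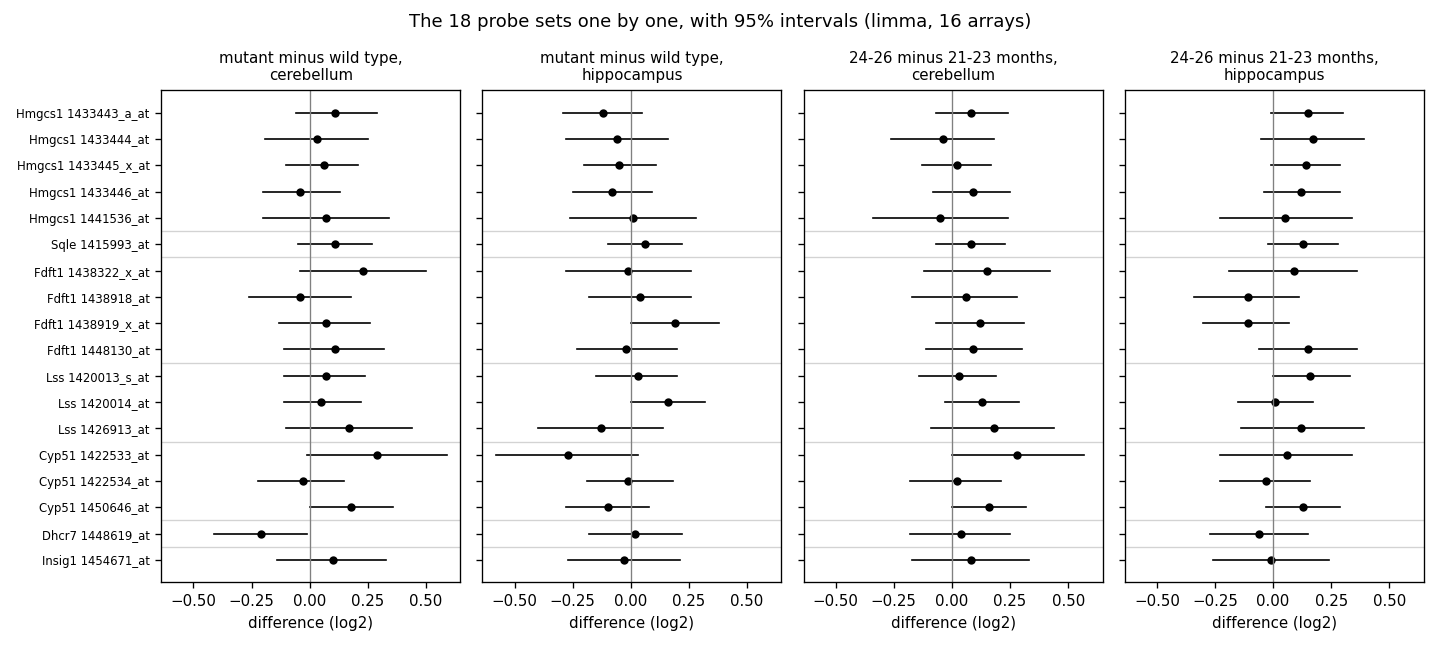
Log2 difference (horizontal axis) of each of the 18 probe sets with its 95% interval, in the same 4 comparisons, ordered by gene. Probe sets of Cyp51 differ in size within each genotype comparison, from -0.03 to 0.29 in the cerebellum, and the 5 probe sets of Hmgcs1 all lie above 0 for age in the hippocampus.

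As a description with no test, the members varied partly together across arrays. In the cerebellum 19 of the 21 pairs had a positive Pearson correlation over 8 arrays (median 0.30), with Sqle and Fdft1 at 0.93. In the hippocampus 15 of 21 pairs were positive (median 0.37), and 14 were without both arrays numbered 1 (median 0.19, 6 arrays). All pairs share the arrays' labelling and normalization. The mean of the 7 genes ran from -0.10 on wild-type replicate 4 to 0.13 on mutant replicate 2 in the cerebellum, and from -0.08 on wild-type replicate 3 to 0.12 on wild-type replicate 1 in the hippocampus. Over the 16 arrays, the other genes most like this mean were Chmp2a, of the ESCRT membrane-scission machinery (r = 0.85), Wipf1, a partner of the actin regulator WASP (r = 0.85), S100a13 (r = 0.83), Krtcap2 (r = 0.83) and the cathepsin gene Ctsz (r = 0.82). Among the 12 other measured enzymes of the pathway, Pmvk had r = 0.72, Idi1 0.62 and Mvd 0.58, the highest. Mvk was at -0.10, Hsd17b7 at -0.08, Fdps at 0.12, Tm7sf2 at 0.15 and Sc5d at 0.28. The rest lay between 0.45 and 0.51.

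Of 15 other listed enzymes of the pathway 12 were measured, and none passed in any comparison. In the cerebellum 11 of them were above 0 in mutants (median 0.06), and the 3 of smallest p were Pmvk, a kinase of the mevalonate stage, at 0.16 (SE 0.08), Nsdhl, a sterol dehydrogenase, at 0.15 (SE 0.07), and Idi1, which isomerizes the isoprene unit, at 0.16 (SE 0.10). In mutant hippocampus 8 were above 0 (median 0.02), and those of smallest p were Idi1 at -0.18 (SE 0.10), Fdps at 0.08 and Sc5d at -0.09. For age, 10 were above 0 in the cerebellum (median 0.07), with Mvk at 0.12, Nsdhl at 0.12 and Fdps at 0.11. In the hippocampus 6 were (median 0.00), with Mvd at 0.13, Lbr at 0.12 and Mvk at -0.07.

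Of 14 listed genes that control SREBP, 12 were measured and none passed after adjustment. In mutant cerebellum 9 were below 0 (median -0.05). The retention factor Insig2 stood at 0.15 (SE 0.06), and the SREBP genes themselves at -0.21 for Srebf2 (SE 0.10) and -0.17 for Srebf1 (SE 0.09). The adjusted p was 0.88 for these 3 genes. In mutant hippocampus 9 were below 0 too (median -0.05), with Nfyb, an NF-Y subunit, at -0.13, Scap at 0.11 and Sp1 at -0.10. With age the widest difference was -0.31 (SE 0.10, adjusted p = 1) for Syvn1, a ubiquitin ligase of the endoplasmic reticulum, in the cerebellum, where Scap stood at -0.09 and Nfyb at -0.07. In the hippocampus Nfyc was at 0.12, Insig2 at -0.09 and Srebf1 at 0.12 with age.

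Among 18 measured of 22 listed genes for uptake, transport and turnover, none passed, but Ch25h came close with age. It encodes the hydroxylase that makes an oxysterol from cholesterol, which keeps SREBP inactive through the Insig proteins. Ch25h had 1 probe set. In the hippocampus older mice stood at 0.24 and 0.08 for mutants 1 and 2 and at 0.72 and 0.69 for wild types 1 and 2. Younger mice stood at -0.08 and -0.35 for mutants 3 and 4 and at -0.21 and -0.23 for wild types 3 and 4. The classes did not overlap, and the means were 0.43 ± 0.32 and -0.22 ± 0.11 (SD, n = 4). The difference was 0.65 (SE 0.10, adjusted p = 0.052). It was 0.60 (adjusted p = 0.16) without both arrays with raised cerebellar markers, and over the alternatives the adjusted p ran from 0.0062 to 0.72 with differences of 0.53 to 0.76. It passed without mutant replicate 2 (0.74, adjusted p = 0.018), without mutant replicate 3 (0.76, adjusted p = 0.0062) and with array weights (0.64, adjusted p = 0.031), and its largest adjusted p, 0.72, came from the 8 hippocampus arrays fitted alone.

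In the cerebellum older mice were also above all younger ones for Ch25h, at 0.06 to 0.21 against -0.21 to -0.06, a difference of 0.28 (SE 0.10, adjusted p = 1). Age classes lay apart with the older higher for 1.78% of all genes in the hippocampus and 1.49% in the cerebellum. The difference between the regions was 0.37 (SE 0.14, adjusted p = 0.94). By genotype Ch25h stood at -0.27 in the hippocampus, where its genotype-by-age contrast was -0.54, and neither passed. Apoe, which encodes the main apolipoprotein of the brain, also had 1 probe set. It stood at 0.20 (SE 0.07) in older cerebellum, where its classes did not overlap either, and at 0.14 (SE 0.07) in older hippocampus. Npc2, which carries cholesterol out of lysosomes, was at 0.17 (SE 0.06) in the cerebellum and 0.11 in the hippocampus. Microglia markers, beside these, had 6 of 7 genes above 0 with age in each region (median 0.16 in the cerebellum and 0.11 in the hippocampus). Their list means were -0.03 to 0.33 on older and -0.15 to -0.07 on younger cerebellar arrays, and -0.07 to 0.22 on older and -0.12 to -0.02 on younger hippocampal ones. Their part in these values was not tested.

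**Figure D4:**
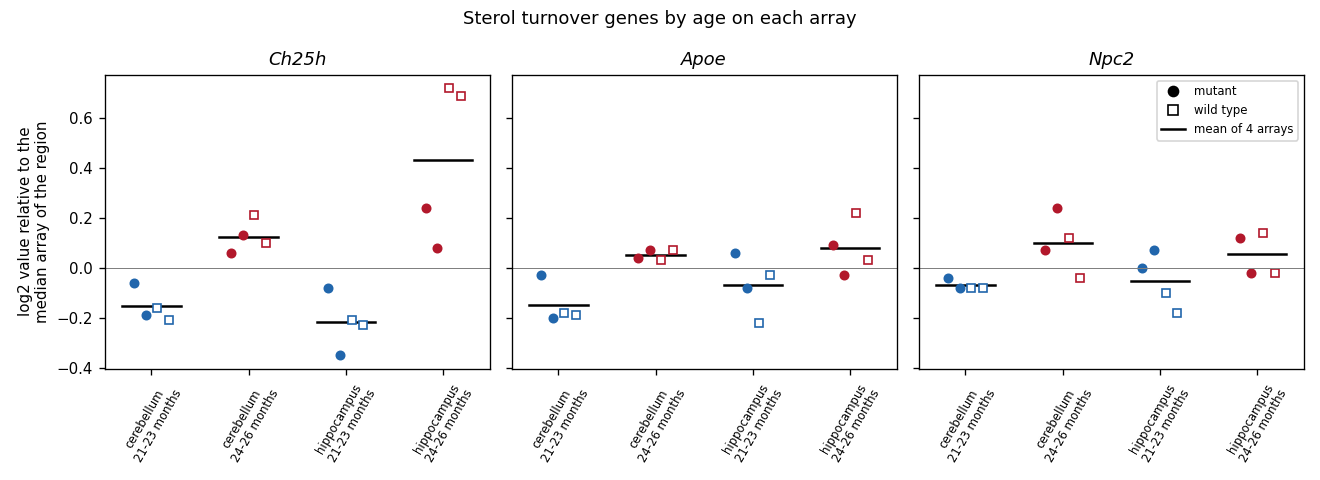
Log2 value of Ch25h, Apoe and Npc2 on each array by region and age class, with filled circles for mutants, open squares for wild types and a bar at the mean of 4 arrays. For Ch25h older mice lie above younger ones in both regions, and the older wild-type hippocampi, at 0.72 and 0.69, lie above the older mutants.

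For the other genes of the turnover list, mutant cerebellum had Abcg4 at -0.13, Scarb1 at 0.17 and Abca7 at -0.17 as those of smallest p. Mutant hippocampus had the cholesterol exporter Abca1 at -0.28 (SE 0.12, adjusted p = 0.60), Lrp8 at -0.17 and Vldlr at -0.11, both lipoprotein receptors. Abca1 was at 0.24 (SE 0.12, adjusted p = 0.75) with age in the hippocampus. Of the 13 fatty acid genes that SREBP also drives, 4 were above 0 in mutant cerebellum and 8 in mutant hippocampus, and none passed. The smallest p for genotype belonged to Scd2 at -0.16, Pnpla3 at 0.13 and Acly at -0.07 in the cerebellum and to Fads2 at 0.12, Elovl6 at -0.11 and Fads1 at 0.11 in the hippocampus. With age they belonged to Gpam at 0.09, Fasn at -0.07 and Elovl6 at -0.09 in the cerebellum, and in the hippocampus to Gpam, the acyltransferase that starts triglyceride synthesis, at 0.25 (SE 0.07, adjusted p = 0.47), the acetyl-CoA synthetase Acss2 at -0.18 (SE 0.06, adjusted p = 0.60) and Elovl5 at 0.09. Over these 55 measured genes of 4 lists, 1.82% and 3.64% had an unadjusted p under 0.05 for genotype in the cerebellum and hippocampus and 9.09% and 5.45% for age, beside 5.39%, 8.03%, 4.21% and 6.55% of all genes. For the difference between regions the shares were 7.27% by genotype and 1.82% by age, beside 5.35% and 4.05% of all genes. For the average over regions they were 3.64% and 12.7%, beside 8.47% and 6.29%. For the genotype-by-age contrast they were 1.82% in the cerebellum and 7.27% in the hippocampus, beside 2.01% and 5.04%.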

How the data were processed

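The values deposited by the authors, taken here as log2, cover 45101 probe sets of an Affymetrix mouse array on 16 arrays, labelled from total RNA. The processing tool listed is GCOS 4.0, per the submitters' processing notes. Summary, normalization and centring steps: not given in the sources used here. For every probe set the median over a region's 8 arrays is 0. Controls (64) and probe sets with an empty value (133) were left out, none of them a member. The empty values lay on wild-type replicate 3 of the cerebellum (76) and of the hippocampus (57). Of 44904 probe sets, 34843 had 1 gene symbol, 931 several and 9130 none; probe sets of 1 gene were averaged.

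All genes entered each of 10 two-sided comparisons in limma 3.58.1 (R 4.3.3), with Benjamini-Hochberg adjustment and a threshold of 0.05. Every adjusted p in the text is limma's. Genotype in each region and its difference between regions used a mean per group (12 residual degrees of freedom). Age used group means plus an age-class term per region (10), its contrast with genotype used 8 cells (8), and averages over regions averaged same-numbered arrays of a genotype across regions first, leaving 8 values (5). The fits were tested on simulated data. Replicates are called biological in the labels, which name no animals, so the p-values rest on a spread between samples that may be technical.

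The members and gene lists were chosen with earlier results of these data known. Named genes were all members, the 3 of smallest p per list in each region's genotype and age comparison, and the 5 genes most correlated with the members' mean. Alternatives were single probe sets, the median over probe sets, fewer probe sets, quantile normalization, array weights, a region alone, a replicate block, other covariates, age in months and leaving out arrays. Promoter and gene records are RefSeq's, GRCm38.p6.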

Additional observations from a re-analysis of the deposited data

Results flagged for a closer look

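Cyp51 on hippocampus mutant replicate 3 stood at 0.07, away from the other 3 mutant arrays at -0.08, -0.10 and -0.12, and was marked by Dixon's test as a sample far from the rest of its group. It was 1 of 28 groups of 4 arrays tested, and chance marks about 1 in 20.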

How the results depend on the processing

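No member passed in any of 176 alternative fits. Of 1162 values of members under the alternatives, 49 changed sign, 43 of them from a size of 0.05 or less. With array weights the signs turned for Hmgcs1 in the genotype average (0.01) and, with age, for Sqle (-0.01) and Lss (0.01) in the difference between regions and Insig1 (-0.01) in the average; the median over probe sets gave 0.04 for Lss in that difference. Quantile normalization gave -0.01 for Lss by genotype in the hippocampus, 0.01 for Dhcr7 in the age average and -0.01 for Sqle in the genotype-by-age contrast of the cerebellum. Age in months, per 3 months, gave -0.01 for Dhcr7 in the cerebellum and -0.01 for Cyp51 and 0.05 for Insig1 in the hippocampus. 2 alternatives, and the marker list counts without single arrays, were chosen after seeing the data. Without both hippocampus replicates 1, Insig1 by genotype was 0.04. Without cerebellar mutant replicates 2 and 4, Dhcr7 by age was -0.04, and the genotype-by-age contrasts were -0.15 for Sqle and -0.02 for Fdft1.

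Leaving out single arrays gave, by genotype in the hippocampus, -0.02 to 0.06 for Lss, -0.09 to 0.05 for Insig1 and -0.04 to 0.06 for Dhcr7, and -0.09 to 0.01 for Fdft1 in the difference between regions. The genotype averages ran from -0.03 to 0.02 for Hmgcs1, -0.05 to 0.04 for Cyp51 and -0.02 to 0.12 for Insig1. By age they ran from -0.02 to 0.06 for Hmgcs1 and -0.03 to 0.15 for Dhcr7 in the cerebellum, and -0.10 to 0.09 for Insig1 and -0.01 to 0.11 for Cyp51 in the hippocampus. The difference between regions by age ran from -0.05 to 0.05 for Lss and -0.20 to 0.01 for Insig1, and the age average from -0.05 to 0.09 for Insig1 and -0.06 to 0.04 for Dhcr7. The genotype-by-age contrasts ran from -0.09 to 0.12 for Sqle, -0.07 to 0.42 for Insig1 and -0.24 to 0.02 for Cyp51 in the cerebellum and from -0.15 to 0.03 for Sqle in the hippocampus, where a lone array left in a cell was assumed to vary like the others. The cause was not tested.

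Of the other pathway genes, the count called by age in the hippocampus was 0, and 1 (Ch25h) with array weights and 0 to 1 without single arrays; Ch25h passed without mutant replicate 2 or 3. In the genotype-by-age contrast of the hippocampus it was 0 to 1, Stard4 without wild-type replicate 2. The labels do not say that the replicate numbers pair the samples. Deviations of same-numbered mutant and wild-type arrays correlated at -0.19 to 0.23. Those of same-numbered cerebellum and hippocampus arrays, which the averages over regions joined, correlated at -0.17 to 0.17. Such correlations cannot decide whether samples were paired. With the replicate block, 0 members passed in each of the 4 genotype comparisons, as without it, and Dhcr7 in the cerebellum stood at -0.21. The block cannot be fitted for age, which is fixed by the replicate number. The count over all genes went from 0 up to 7 by genotype in the hippocampus, 6 by age in the cerebellum, 27 by age in the hippocampus and 350 in the genotype-by-age contrast of the hippocampus without wild-type replicate 2, and from 2 to between 0 and 28 in the age average. A filter on dim probe sets needs expression levels and was not run.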
